A study of Solanum tuberosum with 8 samples.

Results

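The genes *16R*, *34G* and *35G* code for 14-3-3 proteins of potato (*Solanum tuberosum*), and their transcripts were followed over 4 tuber RNA bulks. The 3 genes were taken by name from a table of counts for 32768 genes. A further 10 genes carry a 14-3-3 product name in the annotation, which makes 13 in all, and 12 of them, including all 3 named genes, had enough counts to be tested. The plants belonged to the diploid potato population 12-3, and fully developed, untreated tubers were used after harvest. Poly(A) RNA was sequenced from both ends in 8 libraries, replicates A and B of each bulk. Bulk L1 held plants of low tuber starch content (TSC) and high *AGPaseS-a* expression, and H1 plants of high TSC and high *AGPaseS-a* expression. Bulk L2 held plants of low TSC and low *AGPaseS-a* expression, and H2 plants of high TSC and low *AGPaseS-a* expression. *AGPaseS-a* belongs to ADP-glucose pyrophosphorylase, which makes the glucosyl donor for starch synthesis. Each library pooled the RNA of several plants, so a value is an average over genotypes, and a smaller share of cells with the transcript cannot be told apart from less transcript per cell.

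The 14-3-3 proteins are small acidic proteins that form dimers and bind other proteins at phosphorylated serine or threonine residues. In plants they are known to inhibit phosphorylated nitrate reductase, to bind sucrose-phosphate synthase, and to hold the plasma membrane H+-ATPase in its active state. In Arabidopsis they have also been found on starch grains, and in potato the members of the family have long been studied for their part in tuber carbohydrate metabolism. Because several genes code for closely similar proteins, their roles overlap.

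The annotation of the assembly SolTub_3.0 places *35G* ("14-3-3 protein 1") on the plus strand of scaffold NW_006239078.1, from 420486 to 424996. The gene *16R* ("14-3-3-like protein 16R-like") lies on the minus strand of the same scaffold, from 682324 to 683900. The gap between them is 257327 bp and holds 24 annotated genes. The gene *34G* ("14-3-3-like protein C-like") lies on the plus strand of scaffold NW_006239353.1, from 267769 to 269741. These spans include introns. The sources used here do not give how the counting treated strand or reads that fit more than 1 gene, and the split of reads between close paralogs is uncertain.

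The libraries held between 15293539 and 31943185 counts on genes. H1 replicate A and H2 replicate B stood apart from the other 6 libraries, with scores of -74.7 and -43.5 on the first principal component, against 15.3 to 26.1. Levels are given in CPM, counts scaled to a common library total after each total was adjusted by its TMM factor. The 18 genes on the plastid contig summed to 416.4 CPM in H1 replicate A and 255.7 CPM in H2 replicate B. In the others they summed to 40.75 to 70.43 CPM. Values without H1 replicate A and H2 replicate B are given below for the results that rest on them. Transcripts of the 24 genes annotated as patatin, the storage protein of the tuber, summed to between 13470 and 25490 CPM in every library. The 32 genes for chlorophyll a-b binding proteins and the small subunit of Rubisco summed to only 65.06 to 283.3 CPM.

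All 3 genes were expressed in every library, at clearly different levels. The gene *35G* had the most counts, 7626 to 17023 per library, followed by *34G* with 2226 to 3392 and *16R* with 648 to 1569. Scaled to CPM with TMM factors, *35G* averaged 461.7 ± 123.3 CPM, *34G* 111.7 ± 30.02 CPM and *16R* 44.81 ± 8.17 CPM (SD, n = 8). The mean level of *35G* exceeded that of 98.5% of the 20389 tested genes, that of *34G* 92.1% and that of *16R* 81.2%. The ranges of the 3 genes over the 8 libraries did not overlap.

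Divided by the gene span in kb, *35G* had the highest level of the 12 tested 14-3-3 genes, with 102 ± 27.3 CPM per kb (SD, n = 8). It was followed by *LOC102586856* (14-3-3 protein 10) at 93.6 ± 20.01 CPM per kb and *LOC102579744* (14-3-3 protein 4) at 69.6 ± 15.5 CPM per kb. *35G* lay above *LOC102586856* in 5 of 8 libraries only, so these neighbours did not differ beyond their spread. *34G* was the fourth with 56.6 ± 15.2 CPM per kb and lay below *LOC102579744* in 7 of 8 libraries. *16R* was the seventh with 28.4 ± 5.18 CPM per kb and lay below its upper neighbour *RA215* in 8 of 8 libraries and above its lower neighbour *LOC102600258* (14-3-3 protein 8) in 6. The lowest of the tested genes per kb, *LOC102600581* (GF14 iota), had 0.823 ± 0.414 CPM per kb. This order depends on the spans, which include introns. By CPM without the span, *LOC102579744* was the highest at 482.1 CPM, above *35G* at 461.7 CPM. In that order *35G* took place 2, *34G* place 5 and *16R* place 9 of the 12 genes. *LOC102595977* (14-3-3 protein 7-like) had 0 to 6 counts per library and was not tested.

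For *35G*, the level was 533.5 and 352.2 CPM in L1 replicates A and B, against 655.1 and 355.9 CPM in H1. It was 382.0 and 439.1 CPM in L2, against 360.6 and 615.4 CPM in H2. The highest libraries, H1 replicate A and H2 replicate B, are those that stood apart, and the low-TSC libraries lay between the replicates of the high-TSC bulks except for L1 replicate B. The bulk means ran in the order H1 (505.5 ± 211.6 CPM), H2 (488.0 ± 180.2 CPM), L1 (442.9 ± 128.2 CPM) and L2 (410.5 ± 40.33 CPM; SD, n = 2 each), and neighbouring bulks overlapped throughout.

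For *34G*, the level was 106.3 and 98.8 CPM in L1, against 176.7 and 111.0 CPM in H1. It was 83.56 and 83.43 CPM in L2, against 106.1 and 128.1 CPM in H2. Both low-TSC bulks therefore lay below their high-TSC partner without overlap. The bulk means ran in the order H1 (143.8 ± 46.42 CPM), H2 (117.1 ± 15.56 CPM), L1 (102.6 ± 5.31 CPM) and L2 (83.5 ± 0.0927 CPM; SD, n = 2 each). H1 and H2 overlapped, as did H2 and L1, while both libraries of L2 lay below those of L1.

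For *16R*, the level was 43.57 and 53.68 CPM in L1, against 51.43 and 55.44 CPM in H1. It was 34.65 and 43.90 CPM in L2, against 41.85 and 33.98 CPM in H2. The bulks of low and high TSC overlapped in both pairs. The bulk means ran in the order H1 (53.44 ± 2.836 CPM), L1 (48.62 ± 7.15 CPM), L2 (39.27 ± 6.539 CPM) and H2 (37.91 ± 5.565 CPM; SD, n = 2 each), with an overlap between H1 and L1, between L1 and L2 and between L2 and H2.

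**Figure D1:**
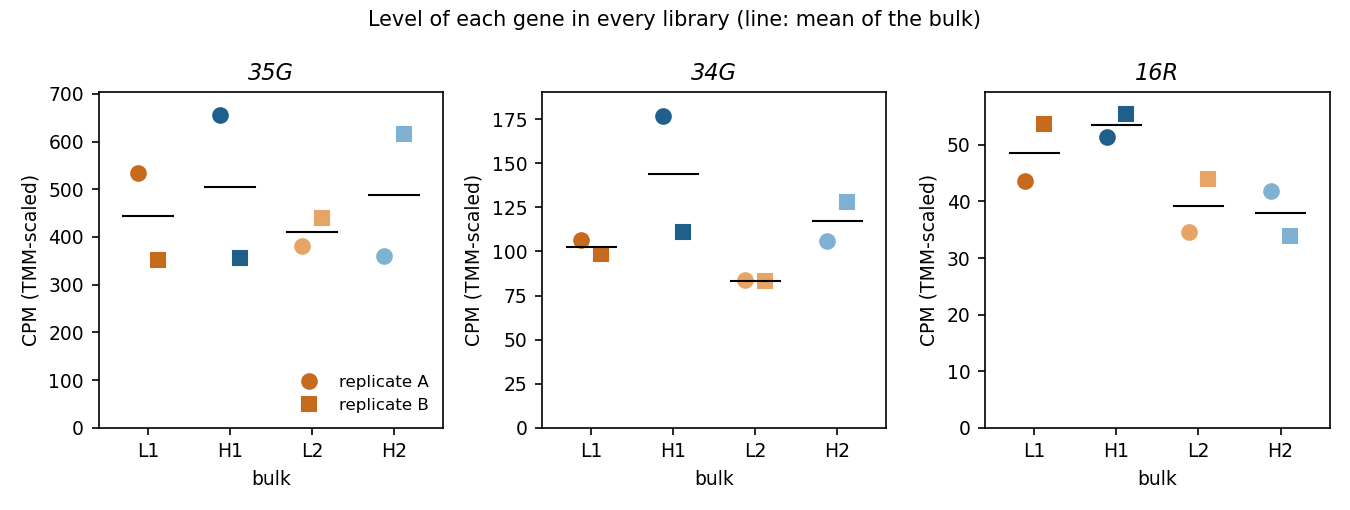
Level of *35G*, *34G* and *16R* in CPM (y axis, from 0) in each library of the bulks L1, H1, L2 and H2 (x axis), with circles for replicate A, squares for replicate B and a line at the mean of the bulk. Only *34G* shows all libraries of both low-TSC bulks below those of their high-TSC partner. It had 83.43 to 106.3 CPM in L1 and L2, against 106.1 to 176.7 CPM in H1 and H2.

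The replicates differed by far more than counting error for *35G* and by little for *34G* in the low-TSC bulks. Between replicates A and B, the log2 ratio of *35G* (A over B) was 0.60 in L1, 0.88 in H1, -0.20 in L2 and -0.77 in H2, with a counting standard error of at most 0.023. That of *34G* was 0.11 in L1, 0.67 in H1, 0.00 in L2 and -0.27 in H2, with a counting standard error of at most 0.043. That of *16R* was -0.30 in L1, -0.11 in H1, -0.34 in L2 and 0.30 in H2, with a counting standard error of at most 0.07. The difference between the L2 replicates of *34G* was smaller than that of 99.4% of tested genes, whereas the difference between the L1 replicates of *35G* was larger than that of 71.6%. The median absolute log2 ratio over all tested genes was 0.314 in L1, 0.764 in H1, 0.282 in L2 and 0.598 in H2. Over the 8 libraries, the coefficient of variation was 18.2% for *16R*, 26.9% for *34G* and 26.7% for *35G*, against a median of 32.6% for all tested genes.

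**Figure D2:**
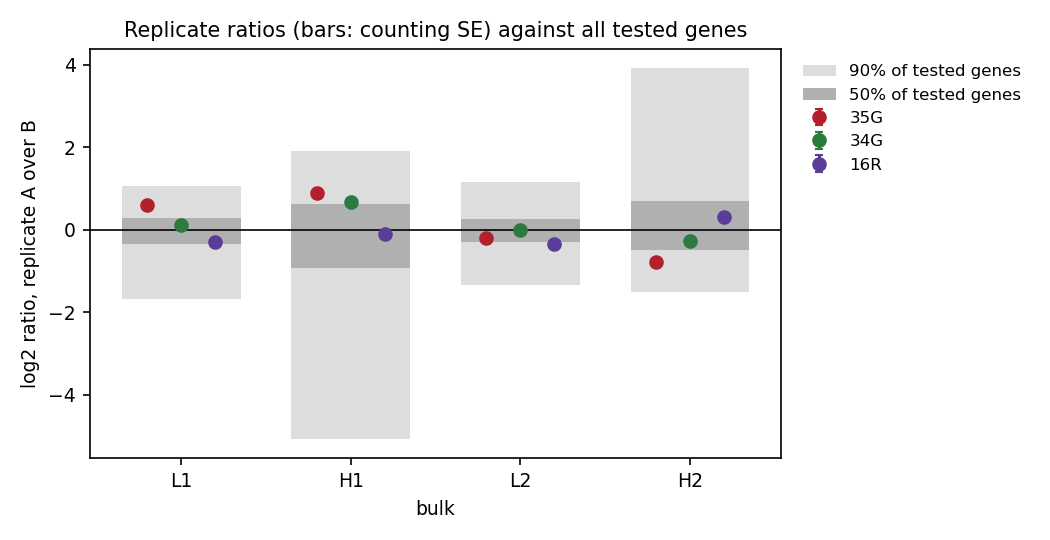
Log2 ratio of replicate A over replicate B (y axis) in each bulk (x axis) for *35G*, *34G* and *16R*, with bars for the counting standard error (mostly smaller than the points), over grey boxes that hold 50% and 90% of the 20389 tested genes. *35G* lies outside the box of 50% in L1, H1 and H2, *34G* in H1 and *16R* in L2. The boxes of H1 and H2 are the widest.

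The first question was whether the 14-3-3 genes differed between low and high TSC within a class of *AGPaseS-a* expression. In H1/L1, the comparison of L1 with H1, none of the 3 genes was called. A call needed an FDR (Benjamini-Hochberg) below 0.05 in the quasi-likelihood test of edgeR and a log2 fold change of 1.5 or more in size, and this rule called 0.0% of all tested genes. The log2 fold change of *34G* was -0.49 (SE 0.281, 95% interval -1.13 to 0.16, edgeR adjusted p = 0.789). That of *35G* was -0.19 (SE 0.398, -1.1 to 0.72) and that of *16R* was -0.14 (SE 0.254, -0.72 to 0.45). The L1 libraries of *34G* lay below those of H1 without overlap, which held for 16.8% of all tested genes. Without H1 replicate A, the log2 fold change of *34G* in this comparison was -0.11, and without H1 replicate A and H2 replicate B that of *35G* was 0.31, higher in L1.

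In H2/L2, the comparison of L2 with H2, again none of the 3 genes was called, beside 0.0% of all tested genes. The log2 fold change of *34G* was -0.49 (SE 0.281, 95% interval -1.13 to 0.16, edgeR adjusted p = 1). That of *35G* was -0.25 (SE 0.398, -1.16 to 0.66) and that of *16R* was 0.05 (SE 0.254, -0.53 to 0.63). The L2 libraries of *34G* lay below those of H2 without overlap, as for 14.8% of all tested genes. Without H1 replicate A and H2 replicate B, the value was -0.35 for *34G*, 0.19 for *35G* and -0.09 for *16R*.

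The same log2 fold change of *34G* in both comparisons left an interaction of 0.00 (SE 0.382, 95% interval -0.88 to 0.88). The interaction is the log2 fold change in H1/L1 less that in H2/L2. It was 0.06 for *35G* (SE 0.563, -1.23 to 1.35) and -0.19 for *16R* (SE 0.359, -1.01 to 0.64). No gene of the 20389 was called for the interaction with edgeR (0.0%). With 2 libraries per bulk these intervals are wide, and they leave room for a difference between the *AGPaseS-a* classes in either direction.

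With both pairs joined (H/L, low-TSC less high-TSC bulks), *34G* averaged 93.03 ± 11.42 CPM in the low-TSC libraries and 130.5 ± 32.21 CPM in the high-TSC libraries (SD, n = 4 each). Its log2 fold change was -0.49 (SE 0.198, 95% interval -0.94 to -0.03), a level of 0.713 times that of the high-TSC bulks. The unadjusted p of edgeR was 0.0385 and the adjusted p 0.622, so the gene was not called, and 4.75% of all tested genes had an unadjusted p under 0.05 and a lower level at low TSC. The rule for a call was passed by 0.0% of genes in this contrast. The groups overlapped by a single pair of libraries, L1 replicate A at 106.31 CPM and H2 replicate A at 106.09 CPM. An exact two-sided permutation test on log2(CPM + 2) gave a difference of -0.46 and p = 0.0571, where the smallest p that 4 against 4 libraries allow is 0.0286. Without H1 replicate A, the log2 fold change was -0.30 (edgeR, unadjusted p = 0.108), and without H1 replicate A and H2 replicate B it was -0.23 (edgeR, unadjusted p = 0.108).

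For the other genes, the difference in H/L was smaller than its standard error. *35G* averaged 426.7 ± 79.83 CPM in the low-TSC libraries and 496.8 ± 160.8 CPM in the high-TSC libraries (SD, n = 4 each), with a log2 fold change of -0.22 (SE 0.282, 95% interval -0.87 to 0.43). The exact permutation test gave p = 0.543, and without H1 replicate A and H2 replicate B the log2 fold change was 0.25. *16R* averaged 43.95 ± 7.774 CPM in the low-TSC libraries and 45.67 ± 9.661 CPM in the high-TSC libraries (SD, n = 4 each), with a log2 fold change of -0.04 (SE 0.179, -0.45 to 0.37). The exact permutation test gave p = 0.943 for *16R*. The interval of *16R* leaves room for a change of less than 0.5 in either direction on the log2 scale, and that of *35G* for a change of less than 0.9.

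A second question was whether the genes followed the class of *AGPaseS-a* expression. Here *16R* showed the largest difference of the 3 genes relative to its error. It averaged 51.03 ± 5.239 CPM in H1 and L1, against 38.59 ± 5.019 CPM in H2 and L2 (SD, n = 4 each), with a log2 fold change of 0.40 (SE 0.18, 95% interval -0.01 to 0.81). The unadjusted p of edgeR was 0.0547 and the adjusted p was 1, and 0.0049% of all tested genes, a single gene, was called. The classes overlapped by L1 replicate A at 43.57 CPM and L2 replicate B at 43.90 CPM. The value stayed between 0.32 and 0.49 in the 14 alternative analyses, the one without H1 replicate A and H2 replicate B among them (0.36). *34G* averaged 123.2 ± 36 CPM in H1 and L1, against 100.3 ± 21.37 CPM in H2 and L2, a log2 fold change of 0.30 (SE 0.198). It was 0.11 without H1 replicate A, 0.44 without H1 replicate B, and 0.19 without both H1 replicate A and H2 replicate B. *35G* averaged 474.2 ± 147.3 CPM in H1 and L1, against 449.3 ± 115.6 CPM in H2 and L2, a log2 fold change of 0.08 (SE 0.282).

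The share of each gene within the 14-3-3 counts of its own library does not depend on how the libraries are scaled. The 13 genes together took between 0.162% and 0.221% of all counts, with the highest share in H1 replicate A. *34G* made up 5.79% and 5.73% of the 14-3-3 counts in L1, against 6.6% and 6.81% in H1. It made up 5.17% and 5.02% in L2, against 6.72% and 6.12% in H2. All 4 low-TSC libraries thus lay below all 4 high-TSC libraries, and this held for 1 of the 12 tested 14-3-3 genes. No such count over all tested genes was made for shares. By level in CPM, a different measure by which *34G* overlapped, 2.82% of all tested genes lay lower at low TSC without overlap. Counted in either direction, 6.24% did not overlap. The 95% Wilson interval of a share was at most 0.47 percentage points to either side, which covers counting error only. *35G* made up 20.4 to 29% at low TSC and 21.8 to 29.4% at high TSC, and *16R* made up 2.14 to 3.11% at low TSC and 1.62 to 3.4% at high TSC. Counts of the 3 genes together were 29.3 to 37.2% of the family.

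**Figure D3:**
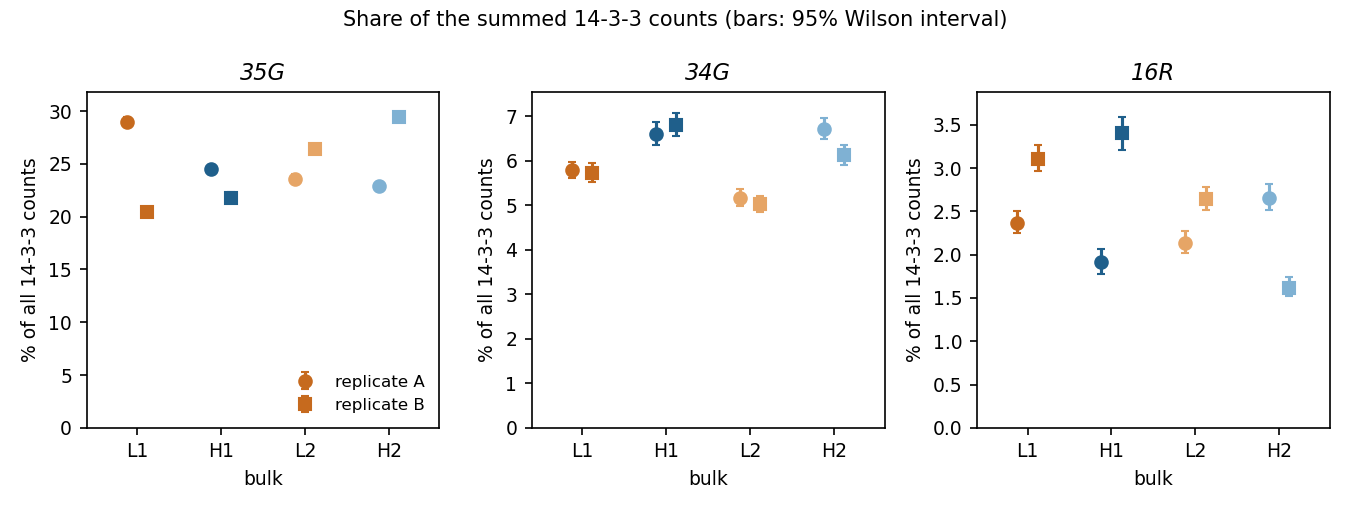
Share of *35G*, *34G* and *16R* in the summed counts of the 13 genes annotated as 14-3-3 (y axis, percent, from 0) in each library of L1, H1, L2 and H2 (x axis), with 95% Wilson intervals that cover counting error. The shares of *34G* are 5.02 to 5.79% in L1 and L2 and 6.12 to 6.81% in H1 and H2.

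The ratio between the genes also varied between libraries. *35G* had 5.02 and 3.56 counts for each count of *34G* in L1, against 3.71 and 3.21 in H1. It had 4.57 and 5.26 in L2, against 3.4 and 4.8 in H2. The ratio overlapped between low and high TSC in both pairs. Over the 8 libraries, the log2 levels of *34G* and *35G* had a Pearson r of 0.697 (exact permutation p = 0.0465, adjusted over 3 pairs 0.14) and a Spearman rho of 0.5 (exact permutation p = 0.216, adjusted 0.449). Leaving out the libraries farthest from the median of *34G*, H1 replicate A and L2 replicate B, gave an r of 0.591, but without H1 replicate A and H2 replicate B r was -0.078, so the relation rests on those libraries. *16R* had a Pearson r of 0.266 with *34G* (exact permutation p = 0.547, adjusted 0.575) and a Spearman rho of 0.071 (exact permutation p = 0.882), and r was 0.57 without the libraries farthest from the median of *16R*, H1 replicate B and H2 replicate B, and 0.591 without H1 replicate A and H2 replicate B. With *35G*, *16R* had a Pearson r of -0.229 (exact permutation p = 0.575, adjusted 0.575) and a Spearman rho of -0.429 (exact permutation p = 0.299), and r was 0.306 and -0.276 in the same order of libraries left out.

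Most 14-3-3 genes had a log2 fold change below 0 in H/L, as *34G* did (-0.49). Those of *LOC102600258* (-0.83) and *LOC102581950* (14-3-3 protein 7, -0.54) were larger in size. Without H1 replicate A and H2 replicate B they were -0.10 and -0.12, against -0.23 for *34G*. Of the 12 tested genes, 10 had a log2 fold change below 0 in H/L, with a median of -0.18, whereas 48.0% of all tested genes were below 0 and their median was 0.02. In H1/L1, 10 of 12 were below 0 with a median of -0.21, and in H2/L2, 8 of 12 with a median of -0.14, against 48.7% of all tested genes in each. None was called in any contrast. In H/L, 2 genes had an unadjusted p under 0.05 with edgeR, both lower at low TSC (*34G* and *LOC102600258*), beside 4.75% of all tested genes, and in H1/L1 1 (*LOC102600258*, beside 3.34% of all tested genes). In H2/L2 it was 0 of 12, beside 2.36% of all tested genes. Without H1 replicate A, the count below 0 was 8 of 12 in H/L, with a median of -0.06 and 0 at an unadjusted p under 0.05 (edgeR), and 7 of 12 in H1/L1, with a median of -0.01. Without both H1 replicate A and H2 replicate B, 8 of 12 were below 0 in H/L, with a median of -0.07. Scaled by library totals, which raised the median of all genes to 0.14 in H/L, 8 of 12 were below 0 with a median of -0.04, and 0 had an unadjusted p under 0.05 (edgeR). With any other library left out, the median of the 12 in H/L lay between -0.30 (without H1 replicate B) and -0.12 (without L2 replicate A). The median of all tested genes in these fits was 0.12 and 0.02. In the contrast of high with low *AGPaseS-a*, 4 of 12 were below 0, against 49.9% of all tested genes, and the median was 0.12. It was 6 of 12 with a median of -0.02 without H1 replicate A, and 4 of 12 with a median of 0.04 with library totals. None of the 12 had an unadjusted p under 0.05 there with edgeR and TMM factors, beside 3.13% of all tested genes. *16R* passed this level with DESeq2 (unadjusted p = 0.0421) and with edgeR and RLE size factors (unadjusted p = 0.0473). Its log2 fold change was 0.48 without H2 replicate A and 0.37 without H1 replicate B, where that of *34G* was 0.44.

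*LOC102600258* (14-3-3 protein 8) had 35.73 and 38.73 CPM in L1, against 123.3 and 39.95 CPM in H1, and 43.13 and 40.72 CPM in L2, against 44.82 and 76.37 CPM in H2. Its high values came from the libraries that stood apart, and the remaining high-TSC libraries lay within 10 CPM of the low-TSC libraries. The log2 fold change was -1.13 in H1/L1 (SE 0.49, edgeR adjusted p = 0.789) and -0.83 in H/L (SE 0.344, edgeR adjusted p = 0.622), against -0.10 in both without H1 replicate A and H2 replicate B. *LOC102600258* and *34G* were the 2 of 12 genes (16.7%) whose low-TSC libraries lay below their high-TSC partners without overlap in both pairs, as did 4.65% of all tested genes. Of the abundant genes, *LOC102586856* had a log2 fold change of -0.35 in H/L (SE 0.214), against -0.04 without H1 replicate A and H2 replicate B. That of *LOC102579744* was -0.02 (SE 0.223), against 0.29 without these libraries.

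**Figure D4:**
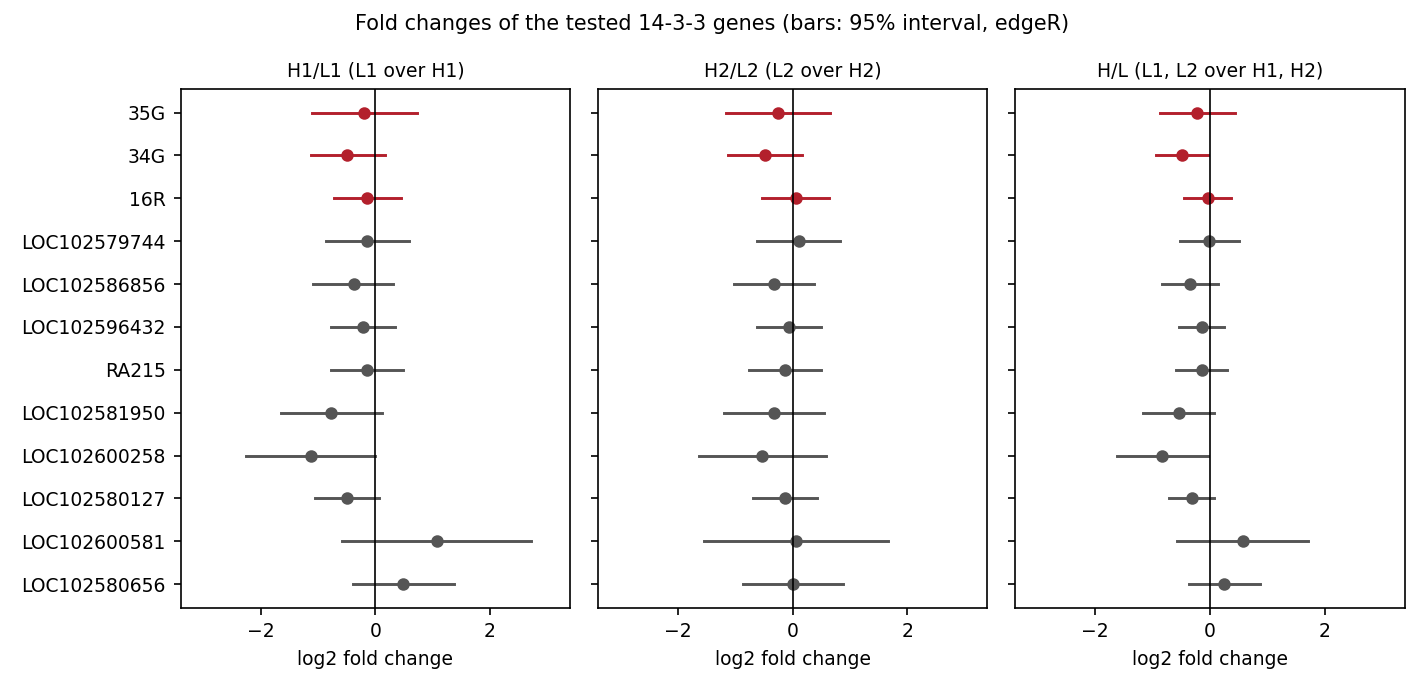
Log2 fold change (x axis, points) with its 95% interval from edgeR (bars) for the 12 tested 14-3-3 genes (y axis) in H1/L1, H2/L2 and H/L, with *35G*, *34G* and *16R* in red at the top and the other genes in grey below them in order of mean level. The interval of *34G* in H/L ends at -0.03, and apart from *LOC102600258* in H1/L1 and H/L the other intervals span 0.

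Genes for proteins that 14-3-3 proteins are known to bind were followed beside them. Of 33 tested genes on this list, 2 had an unadjusted p under 0.05 in H/L, both higher at low TSC, and none was called. The median log2 fold change was 0.01, against 0.02 for all tested genes, of which 3.09% were higher at low TSC with an unadjusted p under 0.05. *LOC102581151*, for a sucrose-phosphate synthase, which makes sucrose phosphate from UDP-glucose and fructose 6-phosphate, had 260.7 and 171.1 CPM in L1, against 86.99 and 131.8 CPM in H1. It had 227.3 and 307.1 CPM in L2, against 239.0 and 134.2 CPM in H2. The low-TSC libraries lay above H1 in the first pair and overlapped H2 in the second, and the log2 fold change in H/L was 0.75 (SE 0.271, edgeR adjusted p = 0.622), against 0.44 without H1 replicate A and H2 replicate B (edgeR adjusted p = 0.623). *LOC102602949*, for a neutral invertase, which cleaves sucrose, averaged 4.45 ± 1.768 CPM in the low-TSC libraries and 1.709 ± 0.6631 CPM in the high-TSC libraries (SD, n = 4 each), with a log2 fold change of 1.4 (SE 0.372, edgeR adjusted p = 0.622). It was 2.27 in H1/L1 and 0.53 in H2/L2, where L2 had 4.193 and 2.302 CPM, against 2.516 and 1.976 CPM in H2, so that the libraries overlapped.

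The most expressed H+-ATPase gene, *PHA1*, a proton pump of the plasma membrane, averaged 397.5 ± 11.52 CPM in the low-TSC libraries and 269.7 ± 125.9 CPM in the high-TSC libraries (SD, n = 4 each). Only H1 replicate A (149.4 CPM) and H2 replicate B (174.3 CPM) were low, and without them its log2 fold change was 0.08 instead of 0.56. Nitrate reductase (*NR3*), the enzyme for which plant 14-3-3 binding is best known, was close to the limit of detection, with 0.349 ± 0.234 CPM in the low-TSC libraries and 0.550 ± 0.394 CPM in the high-TSC libraries (SD, n = 4 each). The most expressed genes for trehalose-phosphate synthase (*LOC102597825*) and neutral invertase (*LOC102597490*) had log2 fold changes of -0.02 (SE 0.188) and -0.11 (SE 0.174). That of 6-phosphofructo-2-kinase (*LOC102577932*), which sets the level of fructose 2,6-bisphosphate, was -0.39 (SE 0.196), and that of NADP-dependent glyceraldehyde-3-phosphate dehydrogenase (*LOC102593215*) was -0.55 (SE 0.248). Without H1 replicate A and H2 replicate B, these values were -0.30 and -0.75. The most expressed florigen-family gene (*LOC102579194*) and BES1/BZR1 gene (*LOC102582060*), both for partners in signalling, had -0.07 (SE 0.211) and 0.17 (SE 0.163). That of *LOC102579194* was 0.21 without H1 replicate A and H2 replicate B. Of 14 tested genes of starch synthesis, 0 had an unadjusted p under 0.05 in H/L with edgeR, beside 7.84% of all tested genes, and the median log2 fold change was 0.10.

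The genes whose levels followed each 14-3-3 gene most closely over the 8 libraries were of mixed kinds. For *34G*, these were *LOC102591288* (proteasome subunit beta type-1, r = 0.993), *LOC102604428* (a prolyl 4-hydroxylase, r = 0.992) and *LOC102588326* (uncharacterized, r = 0.989). For *35G*, they were *LOC102598833* (the SUMO ligase MMS21, r = 0.989), *LOC102598965* (uncharacterized, r = 0.981) and *LOC102600958* (60S ribosomal protein L27-3, r = 0.979). For *16R*, they were *LOC102589238* (a DEAD-box RNA helicase, r = 0.987), *LOC102599791* (HMG-CoA reductase 1-like, r = 0.955) and *LOC102589293* (a subunit of the conserved oligomeric Golgi complex, r = 0.948). These values are the highest of 20389 genes over only 8 libraries, of which 2 stood apart, and are given as a description.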

How the data were processed

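The authors trimmed paired-end reads with Trimmomatic, aligned them with TopHat2 2.0.9 on a Bowtie2 2.1.0 index of SolTub_3.0, counted reads per gene with HTSeq and deposited the raw counts. The fold changes, p-values and normalized values in the authors' comparison tables were not used, apart from the annotation. Another 2 columns matched no sample and were not used. The libraries were grouped by the trait in their labels. From the counts, filterByExpr kept 20389 of 32768 genes. TMM factors scaled the libraries, and edgeR 4.0.16 (R 4.3.3) fitted a mean for each bulk to all 8 libraries and gave quasi-likelihood p-values, with Benjamini-Hochberg adjustment. The procedure was tested on simulated data. The study calls replicates A and B of a bulk biological. The sources used here do not say whether they pool different plants, so p-values measure only the spread between libraries.

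Named genes were the 3 members, other 14-3-3 genes among the 3 most abundant per kb or at an unadjusted p under 0.05, the 3 best-correlated genes of each member (r of log2(CPM + 2)), and, of each class of known partners, the gene with most counts and any at an unadjusted p under 0.05. *LOC102600581*, *LOC102595977* and *RA215* are named to close the order of levels. *LOC102581950* is named for its log2 fold change in H/L and for a library far from the others. No annotated product matched starch synthase 3. The members and lists were chosen with earlier results of these data known. Alternatives were DESeq2 1.42.0, library totals, RLE size factors, all genes without a filter, the libraries of a comparison alone, the replicate letter as a block, a pseudocount of 0.5 in the permutation test, and leaving out libraries.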

Additional observations from a re-analysis of the deposited data

Results flagged for a closer look

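Among 24 groups of 4 low-TSC or high-TSC libraries, formed by the 12 tested 14-3-3 genes, 2 held a library far from the others, where chance alone gives about 1 in 20 groups. *LOC102581950* (14-3-3 protein 7) had 138 CPM in H1 replicate A, against 55.8 to 63.2 CPM in the other high-TSC libraries. *LOC102600581* (GF14 iota) had 4.17 CPM in L1 replicate B, against 8.14 to 8.72 CPM in the other low-TSC libraries. None of these groups belonged to *16R*, *34G* or *35G*. H1 replicate A is also one of the libraries with a high sum of plastid-contig transcripts, whose part in the value of *LOC102581950* was not tested.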

How the results depend on the processing

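The log2 fold change of *34G* stayed below 0 in 15 of 15 alternatives in H1/L1 (-0.78 to -0.11) and 15 of 15 in H2/L2 (-0.61 to -0.35). It also did so in 14 of 14 in H/L (-0.63 to -0.23). The values of -0.78 and -0.63 came without H1 replicate B, which left H1 replicate A, a library that stood apart, alone in its bulk. The permutation difference of *34G* reached the smallest p, 0.0286, with library totals (-0.33) and without H2 replicate A (-0.55). With 1 library left out, this difference ranged from -0.55 to -0.30. None of the values of *16R*, *34G* and *35G* passed the threshold for a call under any alternative run. Signs turned, with the cause not tested, as follows. With 1 library left out, *16R* ranged from -0.29 to 0.01 in H1/L1, from -0.13 to 0.22 in H2/L2 and from -0.13 to 0.04 in H/L. *35G* ranged from -0.56 to 0.32 in H1/L1, from -0.58 to 0.19 in H2/L2, from -0.40 to 0.03 in H/L and from -0.18 to 0.30 in high/low *AGPaseS-a*. The interaction ranged from -0.29 to 0.38 for *34G* and from -0.37 to 0.57 for *35G*. The permutation difference of *16R* ranged from -0.17 to 0.06. With library totals, *16R* had 0.08 in H/L and 0.08 in the permutation test, and the interaction of *34G* was -0.01 with DESeq2 and -0.01 with RLE size factors. Without H1 replicate A and H2 replicate B, *35G* had 0.31 in H1/L1, 0.19 in H2/L2 and 0.25 in H/L, and *16R* -0.09 in H2/L2.

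Over all genes, DESeq2 called 37 genes in H1/L1, 26 in H2/L2, 67 in H/L, 6 for the interaction and 39 in high/low *AGPaseS-a*, where edgeR called 0, 0, 0, 0 and 1. At an unadjusted p under 0.05 edgeR had 1168, 481, 1599, 321 and 639. Without a filter, edgeR called 1 in H1/L1 and 1 in H/L. In high/low *AGPaseS-a* it called 0 with library totals, 0 with the replicate block, 0 without H1 replicate A and H2 replicate B, and 0 to 1 with 1 library left out. The replicate letter as a block gave -0.48 for *34G* in H/L (edgeR, unadjusted p = 0.0609). It gave *LOC102600258* an unadjusted p of 0.0619 in H/L and 0.0828 in H1/L1 (edgeR), so that 0 of the 12 tested 14-3-3 genes stayed under 0.05. Apart from the call in high/low *AGPaseS-a* it changed no other call. Deviations of same-lettered libraries correlated between -0.536 and 0.196. The lowest value was that of H1 with H2, whose libraries that stood apart carry different letters. These correlations therefore cannot decide whether the letters pair the bulks. Crossing the letters of H2 and L2, chosen after seeing the data, called 0 genes in H2/L2. With 2 libraries per bulk the printed intervals are wide, and the smallest change that could have been detected was not computed.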
